A study of Homo sapiens with 12 samples.

Results

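The genes described here code for proteases that cancer cells use to break down the matrix around them, and for inhibitors of these proteases. They are 9 genes, chosen by name: the matrix metalloproteinases MMP1, MMP2, MMP3, MMP9 and MMP14, the metalloproteinase inhibitors TIMP1 and TIMP2, and PLAU and PLAUR, which code for the urokinase plasminogen activator and its receptor. On the array used, 85 probes belonged to transcripts of these 9 genes, of 209671 probes that were assigned to 20708 genes. They were measured in MDA-MB-231 cells, an established triple-negative breast cancer line with mesenchymal traits and high motility, on 12 single-color exon arrays, with 3 biological replicates in each of 4 groups. Cells of the group cntrl carried control oligonucleotides for both the mimic and the siRNA, mimic145 cells overexpressed miR-145-5p from a transfected mimic, sirnaAGO2 cells were depleted of Ago2 with a Dicer-substrate siRNA, and sirnaAGO2+mimic145 cells had both treatments. The mimic was used at 5 nM and the siRNA at 500 pM for 72 h, and all groups came from the same line. The labels do not name a control oligonucleotide for the singly treated mimic145 and sirnaAGO2 cells. The study describes the array cells as those of its preceding experiments. In its migration assay, cells with and without Ago2 depletion received either a control mimic or miR-145-5p. Its figure of the array results names the undepleted arm si-CTR. The comparisons ask whether miR-145-5p alters the transcripts of these genes, and whether the depletion of Ago2 alters them or that effect.

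Matrix metalloproteinases are zinc-dependent enzymes made as inactive precursors, which become active once their propeptide is cut. Most are secreted, whereas the MMP14 protein is anchored in the plasma membrane, where together with TIMP2 it activates the MMP2 precursor. TIMP proteins block the active site of metalloproteinases. Urokinase bound to its receptor converts plasminogen to plasmin at the cell surface, and plasmin in turn cleaves matrix proteins and metalloproteinase precursors. Ago2 is the Argonaute protein that holds the guide strand of a microRNA or siRNA and can cut its target. Only transcripts were measured here, not the activity of the enzymes.

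The miRNA whose mimic was transfected into the mimic145 and sirnaAGO2+mimic145 cells is shown because it is the treatment by which each of these groups is labelled apart from its reference. The mature miRNA has 23 bases and is encoded on the plus strand at chr5:149430661-149430683 (RefSeq, GRCh38.p14). The capitals mark the seed, bases 2 to 8, through which most targets are recognised.
hsa-miR-145-5p: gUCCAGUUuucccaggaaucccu

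Of the 6 slides, each with 2 arrays, 3 paired cntrl and mimic145 and 3 paired sirnaAGO2 and sirnaAGO2+mimic145, always within a replicate. The array with the mimic was always at the second position, so position and mimic cannot be told apart, and no slide held both silenced and unsilenced cells, so slide and silencing cannot be told apart within a replicate. The share of probe spots well above background ran from 60.5% to 77.3% across arrays. The log2 level of AGO2, the silenced gene, was 9.21, 9.14 and 9.01 on the cntrl arrays of replicates 1 to 3, 9.44, 9.36 and 9.39 on the mimic145 arrays, 8.35, 8.44 and 8.42 on the sirnaAGO2 arrays and 8.27, 8.35 and 8.41 on the sirnaAGO2+mimic145 arrays. Silencing left 61% of the AGO2 transcript without the mimic (adjusted p = 0.00491, limma) and 48.1% with it (adjusted p = 0.000783, limma). Of the transcripts known from this line, VIM, CD44, FN1, CAV1, KRT8 and KRT18 had at least 96.8% of their probe readings well above background and SPARC 47.5%, whereas among genes not expected in it PGR had 4.63%, ESR1 35.7%, CDH1 38%, EPCAM 85% and GATA3 100%. Of 12 markers of fibroblasts, leukocytes and endothelium, DCN was higher with the mimic in control cells (log2 difference 0.31, adjusted p = 0.0133) and in silenced cells (0.34, adjusted p = 0.03). PDGFRB was higher with the mimic in silenced cells (0.48, adjusted p = 0.0283), and PECAM1 was lower with silencing alone (-0.68, adjusted p = 0.0311). With the mimic, 1 of the 12 passed in control cells, against 22.6% of all genes, and 2 in silenced cells, against 7.28%. With silencing, 1 passed without the mimic, against 2.58% of all genes, and 0 with it, against 4.32%. DCN rested on 2 of 9 probes, PDGFRB on 12 of 23 and PECAM1 on 1 of 2. Their probe readings were well above background in 18.5%, 52.2% and 20.8%, so DCN and PECAM1 were near background. None of the 12 was at 0, but no processed intensity on any array was under 1, so this does not show that they were expressed. The summed intensity of the 5 fibroblast markers ranged from 854 to 974 in cntrl, 931 to 1040 in mimic145, 892 to 952 in sirnaAGO2 and 905 to 1120 in sirnaAGO2+mimic145 cells. That of the 4 leukocyte markers ranged from 1190 to 1720, 1380 to 1600, 1200 to 1470 and 1260 to 1900 in the same order, and that of the 3 endothelial markers from 331 to 407, 345 to 437, 296 to 343 and 318 to 430. Their part in the results below was not tested. When each array was scaled on its 75th percentile in place of quantile normalization, the median log2 difference of all genes with the mimic in silenced cells moved from 0.02 to 0.11, and the share of higher genes among those that passed rose from 58.4% to 80.2%.

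All 9 genes passed the detection filter, though on very different numbers of probes. A probe was used where every array of some group, 3 of 3, had its spots well above background, and a gene's level was the mean log2 intensity of its probes, so levels cannot be compared between genes. In all, 52 of the 85 probes were used. These were all 11 probes of PLAU, all 8 of PLAUR, all 10 of MMP14 and all 5 of TIMP2, with 5 of 6 for TIMP1 and 9 of 13 for MMP9. MMP2 rested on 2 of 13 probes, MMP1 on 1 of 10 and MMP3 on 1 of 9. For 8 of the MMP1, 8 of the MMP3 and 6 of the MMP2 probes, no array had a reading well above background.

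**Figure D1:**
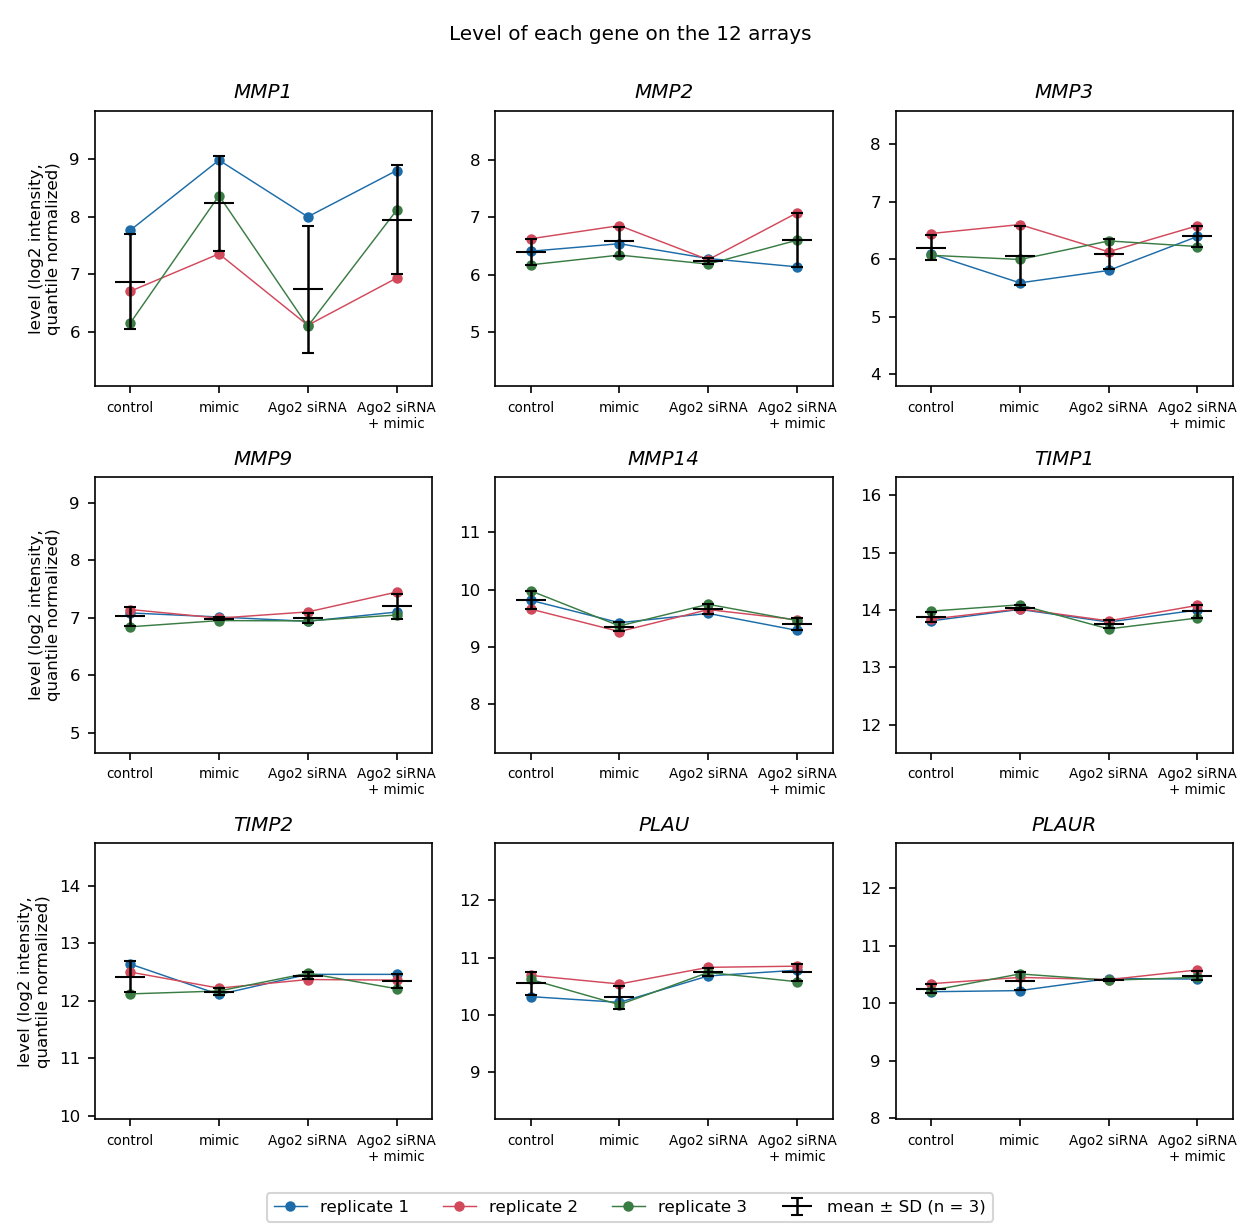
Level of each of the 9 genes (vertical axes, log2 quantile normalized intensity, all spanning the same width) in the 4 groups, with a colored line for each replicate number and a black bar for the mean ± SD of 3 arrays. MMP1 had the widest spread between replicates, and its level was higher with the mimic in every replicate, while MMP14 was lower with the mimic in every replicate.

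MMP1, the interstitial collagenase, was higher with miR-145-5p in both control and Ago2-silenced cells. Its log2 level was 7.77, 6.70 and 6.15 on the cntrl arrays of replicates 1, 2 and 3 (mean 6.87 ± 0.82, SD, n = 3) and 8.99, 7.36 and 8.37 on the mimic145 arrays (8.24 ± 0.82, SD, n = 3). Every mimic145 array lay above the cntrl array of its replicate, but the groups overlapped, since the cntrl array of replicate 1 exceeded the mimic145 array of replicate 2. The level was 8.001, 6.11 and 6.10 on the sirnaAGO2 arrays (6.74 ± 1.10, SD, n = 3) and 8.81, 6.93 and 8.12 on the sirnaAGO2+mimic145 arrays (7.95 ± 0.95, SD, n = 3). Again all 3 pairs went up and the groups overlapped, with replicate 1 high and replicate 2 low among the mimic-treated arrays. With the replicate number as a block, MMP1 rose 2.57-fold in control cells (log2 difference 1.36, 95% interval 0.66 to 2.07, adjusted p = 0.0139) and 2.32-fold in silenced cells (1.22, 0.51 to 1.92, adjusted p = 0.0496). The replicates gave log2 differences of 1.22, 0.65 and 2.22 in control cells and 0.81, 0.82 and 2.02 in silenced cells, so replicate 3 showed the largest in each. As RNA was pooled from whole cultures, fewer cells expressing a gene and less RNA per cell cannot be told apart here or below.

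The MMP1 result rested on a single dim probe. Its mean spot intensity, background-corrected but not normalized, was 218.8, 103.8 and 67.53 on the cntrl arrays of replicates 1, 2 and 3. On the mimic145 arrays of these replicates it was 557.8, 158.4 and 353.5. It was 271.7, 62.29 and 55.24 on the sirnaAGO2 arrays and 437.6, 143.4 and 256.6 on the sirnaAGO2+mimic145 arrays. The spots were thus brighter with the mimic in each replicate before normalization as well. The probe was well above background on 11 of the 12 arrays. Of the 9 MMP1 probes that were not used, 8 were higher with the mimic in control cells (log2 differences from -0.02 to 1.05) and 8 in silenced cells (-0.02 to 1.06). With all 10 probes, MMP1 rose by 0.52 in control cells (adjusted p = 0.0255) and by 0.60 in silenced cells (adjusted p = 0.0431).

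In silenced cells the MMP1 call was lost in 9 of the 12 fits that left out 1 array (adjusted p from 0.0575 to 0.175). It was also lost with slide as a random block in place of the replicate block (adjusted p = 0.125). Without the replicate block neither MMP1 call passed (adjusted p = 0.216 in control and 0.371 in silenced cells). In control cells the MMP1 call was lost without cntrl replicate 1 (adjusted p = 0.0513), cntrl replicate 3 (0.0627) or mimic145 replicate 3 (0.0574). It was also lost without all arrays of replicate 1 (0.0916) or of replicate 3 (0.0574). With slide as a random block in place of the replicate block it was lost too (0.0566). Silencing of Ago2 gave MMP1 a log2 difference of -0.14 without the mimic (adjusted p = 0.842) and -0.29 with it (adjusted p = 0.642). The effect of the mimic on MMP1 was 0.15 lower in silenced than in control cells on the log2 scale, with an interval from -1.14 to 0.85 (adjusted p = 0.887).

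MMP14, the membrane-anchored metalloproteinase, was lower with miR-145-5p in control cells. Its log2 level was 9.81, 9.66 and 9.98 on the cntrl arrays (mean 9.82 ± 0.16, SD, n = 3) and 9.42, 9.27 and 9.37 on the mimic145 arrays (9.35 ± 0.08, SD, n = 3). The groups did not overlap. MMP14 fell 1.38-fold (log2 difference -0.47, 95% interval -0.66 to -0.27, adjusted p = 0.00527), with pair differences of -0.39, -0.39 and -0.61.

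In Ago2-silenced cells the log2 level of MMP14 was 9.58, 9.65 and 9.74 without the mimic (9.66 ± 0.08, SD, n = 3) and 9.29, 9.47 and 9.46 with it (9.41 ± 0.10, SD, n = 3). These groups did not overlap either and all 3 pairs were lower, yet the log2 difference of -0.25 (95% interval -0.45 to -0.06) did not pass (adjusted p = 0.099). With normexp background correction it was -0.23 and passed (adjusted p = 0.0451). The difference between the mimic effects was 0.21 (95% interval -0.06 to 0.49, adjusted p = 0.404), so an unequal effect in the 2 arms was not shown. Silencing gave a log2 difference of -0.16 without the mimic (adjusted p = 0.359) and 0.06 with it (adjusted p = 0.755).

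All 10 probes of MMP14 were lower with the mimic in control cells, by log2 differences from -0.85 to -0.05 with a median of -0.48. In silenced cells 9 of the 10 were lower, with a median of -0.13, and 1 probe at -1.17 stood apart. That probe was well above background on 11 of 12 arrays, and with only the probes that were so on all 12 the differences were -0.42 in control cells (adjusted p = 0.00285) and -0.15 in silenced cells (adjusted p = 0.209). The MMP14 call in control cells held in all 12 fits that left out 1 array, and was lost on leaving out all 4 arrays of replicate 1 (adjusted p = 0.0517) or replicate 3 (adjusted p = 0.0911).

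**Figure D2:**
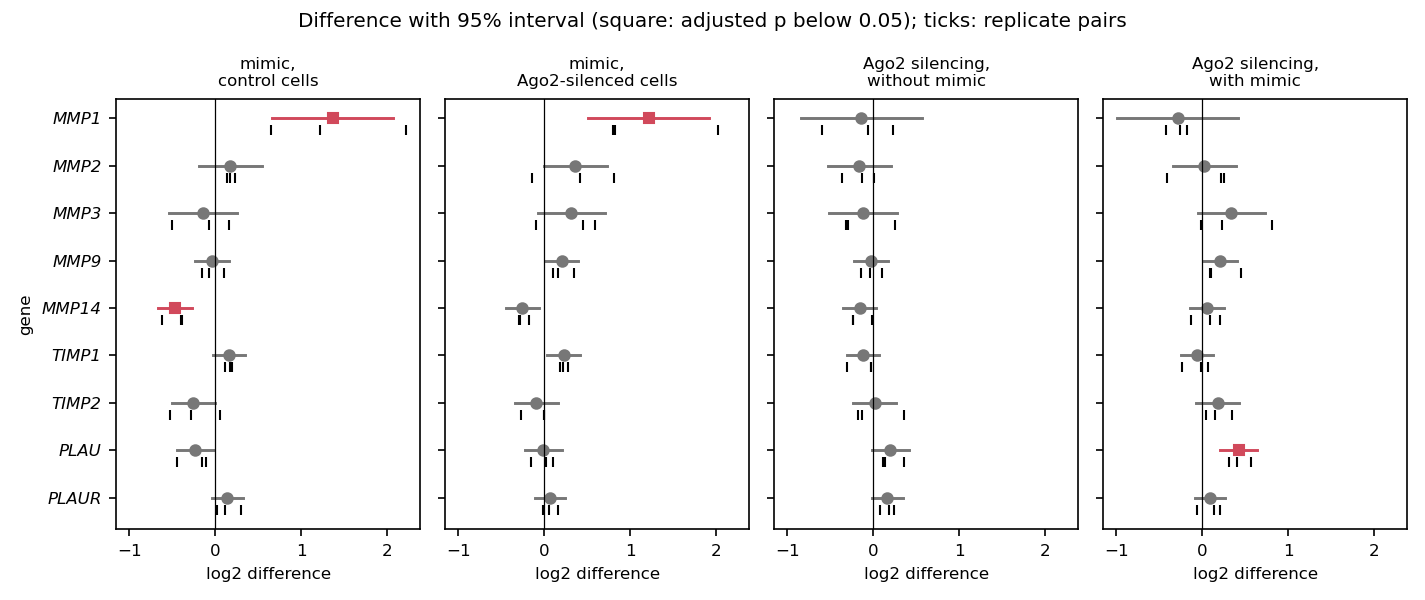
Log2 difference of each gene (points, with lines for the 95% interval) in the 4 comparisons, and below each point 3 ticks for the replicate pairs. Red squares passed at an adjusted p of 0.05 and gray circles did not, and MMP1 had the widest intervals.

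The gelatinases MMP2 and MMP9, which cleave denatured and basement membrane collagen, and the stromelysin MMP3 passed in no comparison. MMP9 measured 7.08, 7.14 and 6.84 on the cntrl arrays, 7.01, 6.99 and 6.95 on the mimic145 arrays, 6.94, 7.10 and 6.94 on the sirnaAGO2 arrays and 7.10, 7.45 and 7.05 on the sirnaAGO2+mimic145 arrays. Its highest array was thus replicate 2 of the cells with both treatments, and that group did not overlap with mimic145 (log2 difference 0.21, 95% interval 0.02 to 0.41, adjusted p = 0.197). With the mimic, MMP9 differed by -0.04 in control cells (95% interval -0.23 to 0.16, adjusted p = 0.799) and by 0.20 in silenced cells (0.01 to 0.40, adjusted p = 0.16), where the median over its probes in place of the mean gave 0.50 and passed (adjusted p = 0.0424). Of its 9 probes, 4 were higher with the mimic in control cells and 6 in silenced cells. All 9 were well above background on every cntrl and sirnaAGO2 array, but only 5 on every mimic145 array and 7 on every sirnaAGO2+mimic145 array.

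MMP2 measured 6.41, 6.63 and 6.17 on the cntrl arrays, 6.54, 6.86 and 6.34 on the mimic145 arrays, 6.28, 6.26 and 6.19 on the sirnaAGO2 arrays and 6.14, 7.08 and 6.60 on the sirnaAGO2+mimic145 arrays. The last group spread the most and overlapped with each of the others. The log2 difference with the mimic was 0.18 in control cells (adjusted p = 0.479) and 0.36 in silenced cells (95% interval -0.01 to 0.73, adjusted p = 0.178). In silenced cells it passed on the 1 probe detected on all 12 arrays (0.55, adjusted p = 0.0202) and without sirnaAGO2+mimic145 replicate 1 (0.60, adjusted p = 0.0168). MMP3 measured between 5.59 and 6.60 over the 12 arrays, both ends of this range lying in the mimic145 group. The mimic gave MMP3 -0.14 in control cells (adjusted p = 0.608) and 0.32 in silenced cells (adjusted p = 0.259; 0.64 and adjusted p = 0.043 with 75th percentile scaling), and its 1 probe was well above background on 10 of 12 arrays.

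TIMP1 passed in no comparison, although its levels with the mimic lay above those without it in both arms. Its log2 level was 13.81, 13.84 and 13.98 on the cntrl arrays and 14.01, 14.02 and 14.09 on the mimic145 arrays. It was 13.79, 13.81 and 13.67 on the sirnaAGO2 arrays and 14, 14.08 and 13.86 on the sirnaAGO2+mimic145 arrays. Neither pair of groups overlapped and all pairs were higher, with log2 differences of 0.16 in control cells (95% interval -0.03 to 0.35, adjusted p = 0.198) and 0.23 in silenced cells (0.04 to 0.41, adjusted p = 0.12). All 5 TIMP1 probes were higher with the mimic in each arm, by 0.11 to 0.22 in control cells and 0.16 to 0.30 in silenced cells. The sirnaAGO2 arrays lay below all cntrl arrays by a narrow margin, with a log2 difference of -0.12 (adjusted p = 0.472).

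TIMP2, the inhibitor that also takes part in activating the MMP2 precursor, measured 12.64, 12.50 and 12.12 on the cntrl arrays and 12.11, 12.22 and 12.17 on the mimic145 arrays. It measured 12.46, 12.37 and 12.48 on the sirnaAGO2 arrays and 12.46, 12.36 and 12.21 on the sirnaAGO2+mimic145 arrays. Replicate 3 of cntrl was the lowest of its group and lay among the mimic145 arrays. The log2 difference with the mimic was -0.25 in control cells (95% interval -0.51 to 0.00, adjusted p = 0.137) and -0.09 in silenced cells (-0.34 to 0.16, adjusted p = 0.616), and neither passed. Without cntrl replicate 3 the difference in control cells was -0.39 and passed (adjusted p = 0.0279). All 5 probes were lower with the mimic in both arms.

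PLAU, the urokinase gene, was higher in Ago2-silenced than in unsilenced cells when both carried the mimic. Its log2 level was 10.22, 10.54 and 10.18 on the mimic145 arrays (mean 10.31 ± 0.20, SD, n = 3) and 10.78, 10.85 and 10.58 on the sirnaAGO2+mimic145 arrays (10.74 ± 0.14, SD, n = 3). These groups did not overlap. PLAU rose 1.34-fold (log2 difference 0.42, 95% interval 0.21 to 0.64, adjusted p = 0.0449), with pair differences of 0.56, 0.31 and 0.40. All 11 probes were higher, by 0.02 to 0.61 with a median of 0.41.

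Without the mimic, PLAU measured 10.32, 10.69 and 10.62 on the cntrl arrays (10.55 ± 0.20, SD, n = 3) and 10.68, 10.83 and 10.74 on the sirnaAGO2 arrays (10.75 ± 0.08, SD, n = 3). All 3 pairs and 10 of 11 probes were higher with silencing, but the groups overlapped and the log2 difference of 0.20 did not pass (adjusted p = 0.299). The mimic gave PLAU a log2 difference of -0.23 in control cells (95% interval -0.45 to -0.01, adjusted p = 0.118), with 3 of 3 pairs lower, and -0.01 in silenced cells (-0.23 to 0.21, adjusted p = 0.961). The difference between these effects was 0.22 (95% interval -0.08 to 0.53, adjusted p = 0.432). The PLAU call was close to the threshold. It was lost in 10 of the 12 fits that left out 1 array (adjusted p from 0.0667 to 0.148) and with 75th percentile scaling (0.0525). It was also lost without the replicate block (0.195) and with slide as a random block in place of the replicate block (0.196).

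PLAUR, the urokinase receptor gene, changed in no comparison by the test. Its log2 level was 10.20, 10.34 and 10.22 on the cntrl arrays, 10.22, 10.45 and 10.51 on the mimic145 arrays, 10.43, 10.41 and 10.40 on the sirnaAGO2 arrays and 10.42, 10.58 and 10.45 on the sirnaAGO2+mimic145 arrays. The cntrl group was the lowest, and it did not overlap with sirnaAGO2 (log2 difference 0.16, adjusted p = 0.295). With the mimic PLAUR differed by 0.14 in control cells (95% interval -0.03 to 0.32, adjusted p = 0.231) and by 0.07 in silenced cells (-0.11 to 0.25, adjusted p = 0.587). In these comparisons 7 and 6 of its 8 probes were higher.

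**Figure D3:**
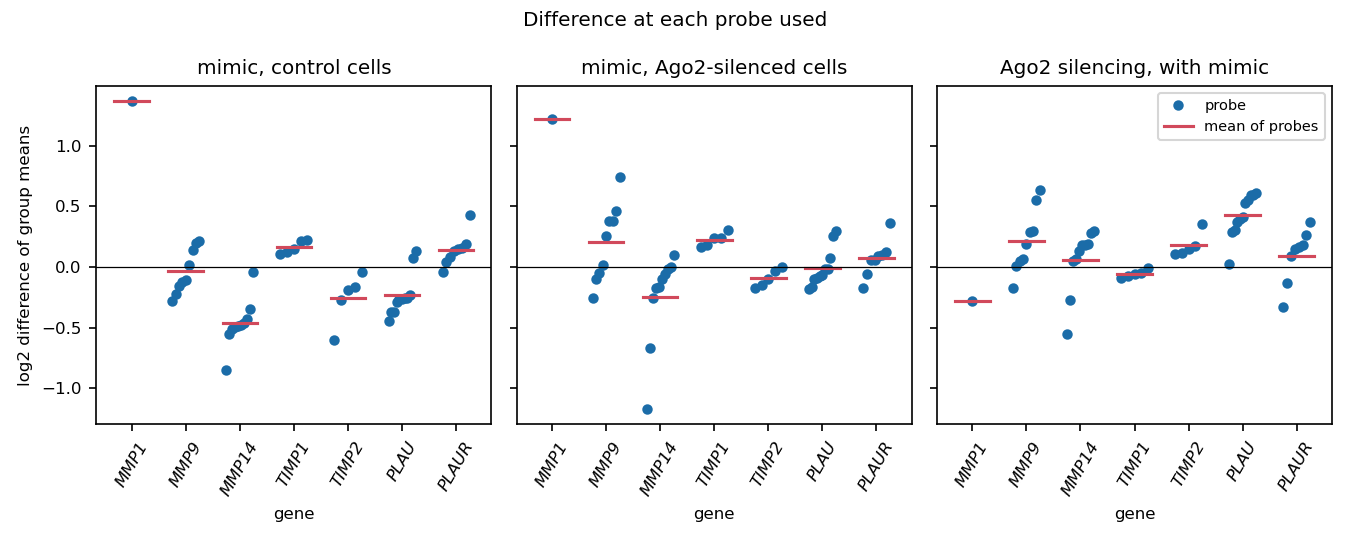
Log2 difference of group means at each probe used (blue points, sorted within a gene) for the 7 genes MMP1, MMP9, MMP14, TIMP1, TIMP2, PLAU and PLAUR in 3 comparisons, with a red line for the mean of a gene's probes. The 10 MMP14 probes lay below 0 in control cells, the 11 PLAU probes lay above 0 for silencing with the mimic, and MMP1 had 1 probe.

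With the mimic in control cells, 2 of the 9 genes passed, MMP1 higher and MMP14 lower. Over all 18253 genes tested in this comparison 22.6% passed, 11.6% higher and 11% lower, so the share of these genes that changed was near that of all genes. With the mimic in silenced cells 1 of the 9 passed, MMP1, against 7.28% of all genes, of which 4.25% were higher and 3.03% lower. None of the 9 passed with silencing alone by limma, and 2.58% of all genes did, 0.888% higher and 1.69% lower. At an unadjusted p under 0.05 it was 0 of 9, against 19% of all genes. With silencing in mimic-treated cells 1 of the 9 passed, PLAU, against 4.32% of all genes, 1.87% higher and 2.44% lower. For the difference between the mimic effects none of the 9 passed by limma, and of all genes 2, or 0.011%, did. At an unadjusted p under 0.05 it was 0 of 9, against 16.8% of all genes.

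At an unadjusted p under 0.05, 4 of the 9 genes were counted with the mimic in each arm, against 35.4% of all genes in control cells and 28.8% in silenced cells. With silencing in mimic-treated cells 2 of the 9 were counted, against 21.5% of all genes. The methods' paired test, at a p of at most 0.05, called MMP2, MMP14 and TIMP1 with the mimic in control cells (21.2% of all genes), MMP14 and TIMP1 in silenced cells (14.2%), 0 of the 9 for silencing alone (17.5%) and PLAU for silencing with the mimic (12.1%) and for the difference (10.3%). After Benjamini-Hochberg adjustment it called 0 of the 9 and 0 of all genes in each. The study's methods also used a permutation test, which is not part of these counts. The median log2 difference of the 9 genes was -0.04 with the mimic in control cells and 0.20 in silenced cells, against 0.01 and 0.02 over all genes. It was -0.12 and 0.09 for silencing without and with the mimic, against -0.03 and 0.00.

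Groups that did not overlap were counted in the same way. With the mimic, MMP14 and TIMP1 did not overlap in control cells and again in silenced cells, 2 of 9 genes each, beside 28.4% and 24.1% of all genes. TIMP1 and PLAUR did not overlap between sirnaAGO2 and cntrl (19.1% of all genes), and MMP9 and PLAU did not overlap between sirnaAGO2+mimic145 and mimic145 (14.8% of all genes). These shares were close to those of the 9 genes.

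The genes whose levels ran most like those of a member over the 12 arrays were taken from the 13329 genes with at least 3 probes used. The correlations are descriptions over arrays that share slides and replicate numbers, and no test was made. MMP14 ran closest to TCAF1 (Pearson r = 0.952), SEC11A (0.945) and TMEM230 (0.939). PLAU ran closest to IQGAP3 (0.94), RMI1 (0.937) and GSDMD (0.936), and PLAUR to NTMT1 (0.965), MARS1 (0.893) and PC (0.892). Among the 3 genes closest to TIMP1 was another inhibitor of the same family, TIMP3 (0.898), beside MTMR11 (0.904) and POFUT4 (0.891), while TIMP2 ran closest to MICALL1 (0.908), SOCS7 (0.895) and CCDC88C (0.889). MMP2 ran closest to PKLR (0.983), ARSG (0.979) and PRAM1 (0.973) and MMP9 to GABBR2 (0.942), GRIP2 (0.941) and HSH2D (0.926). MMP1 and MMP3, which were not detected on every array, were left out of this. Among the 9 genes themselves, the highest correlation was 0.67, between MMP2 and MMP9, and the lowest was -0.656, between MMP1 and MMP14.

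A list of 83 further genes of pericellular proteolysis was measured beside them, of which 76 were tested. With the mimic in control cells 21 of these passed (27.6%, against 22.6% of all genes), 6 higher and 15 lower, with a median log2 difference of -0.02. In silenced cells 6 passed (7.89%, against 7.28% of all genes), 3 in each direction, and 5 genes passed in both arms. The median there was 0.05. Over 26 alternative settings the calls in control cells were lost most often for MMP15 (passed in 4), ADAM19 (7), RECK (8), LOX (8) and CTSZ (9), while the others passed in 15 to 25. In silenced cells the calls passed in 6 (MMP23B) to 17 (TIMP3) of 26.

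Among other metalloproteinases and their inhibitors, 1 of 11 and 2 of 3 genes passed with the mimic in control cells, beside 22.6% of all genes. MMP15, a membrane-anchored relative of MMP14, was lower, TIMP3, a matrix-bound inhibitor, was higher and RECK, a membrane-anchored inhibitor, was lower. In silenced cells TIMP3 was the largest change of the list: it measured 10.12, 10.11 and 9.86 without and 10.60, 10.80 and 10.46 with the mimic, a rise of 0.59 (adjusted p = 0.014). MMP23B was also higher there.

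In the plasminogen system 4 of 11 genes passed in control cells (36.4%) and all were lower, beside 22.6% of all genes, 11.6% higher and 11% lower. Among them were PLGRKT, ANXA2 and S100A10, which code for proteins that bind plasminogen or its activators at the cell surface.

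Of the 9 genes listed as activators and inducers 2 passed in control cells (22.2%, against 22.6% of all genes), both lower, TMPRSS2 and SPINT2. SPINT2 codes for an inhibitor of serine proteases, not for an activator. TMPRSS2, a serine protease of the cell surface, measured 7.57, 7.70 and 7.78 on the cntrl arrays and 6.498, 6.68 and 6.63 on the mimic145 arrays. This was the largest change of the list, -1.08 on the log2 scale (adjusted p = 0.000103), and in silenced cells TMPRSS2 fell by 0.46 (adjusted p = 0.0193). Of the 10 genes of the ADAM family, ADAM10 and ADAM19 were lower (20%). ADAM10, a sheddase that releases the outer part of membrane proteins, measured 9.99, 9.83 and 10.50 on the cntrl arrays and 9.57, 9.28 and 9.63 on the mimic145 arrays, and fell by 0.62 in control cells (adjusted p = 0.00219) and by 0.45 in silenced cells (adjusted p = 0.0312).

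Of the 10 cathepsins and cystatins 3 were lower in control cells (30%), the lysosomal proteases CTSB, CTSD and CTSZ. Of all genes 22.6% passed in this comparison, 11.6% higher and 11% lower. CTSD measured 13.19, 13.31 and 13.46 on the cntrl arrays and 12.67, 12.83 and 12.79 on the mimic145 arrays, without overlap, and fell by 0.56 on the log2 scale (adjusted p = 0.00485). Of 5 surface and matrix enzymes the collagen cross-linking enzyme LOX and the peptidase DPP4 were lower and LOXL2, a relative of LOX, was higher. None of 6 invadopodia genes passed by limma, and 1 of 6 had an unadjusted p under 0.05, against 35.4% of all genes. Of 11 transcription factors of the AP-1 and ETS families 4 passed (36.4%, against 22.6% of all genes) and all were higher, JUNB, JUN, FOSL2 and ETV5. JUNB, with 1 probe, measured 8.11, 8.23 and 8.23 on the cntrl arrays and 8.78, 8.63 and 8.84 on the mimic145 arrays, a rise of 0.56 (adjusted p = 0.00263), and rose by 0.39 in silenced cells (adjusted p = 0.0387).

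**Figure D4:**
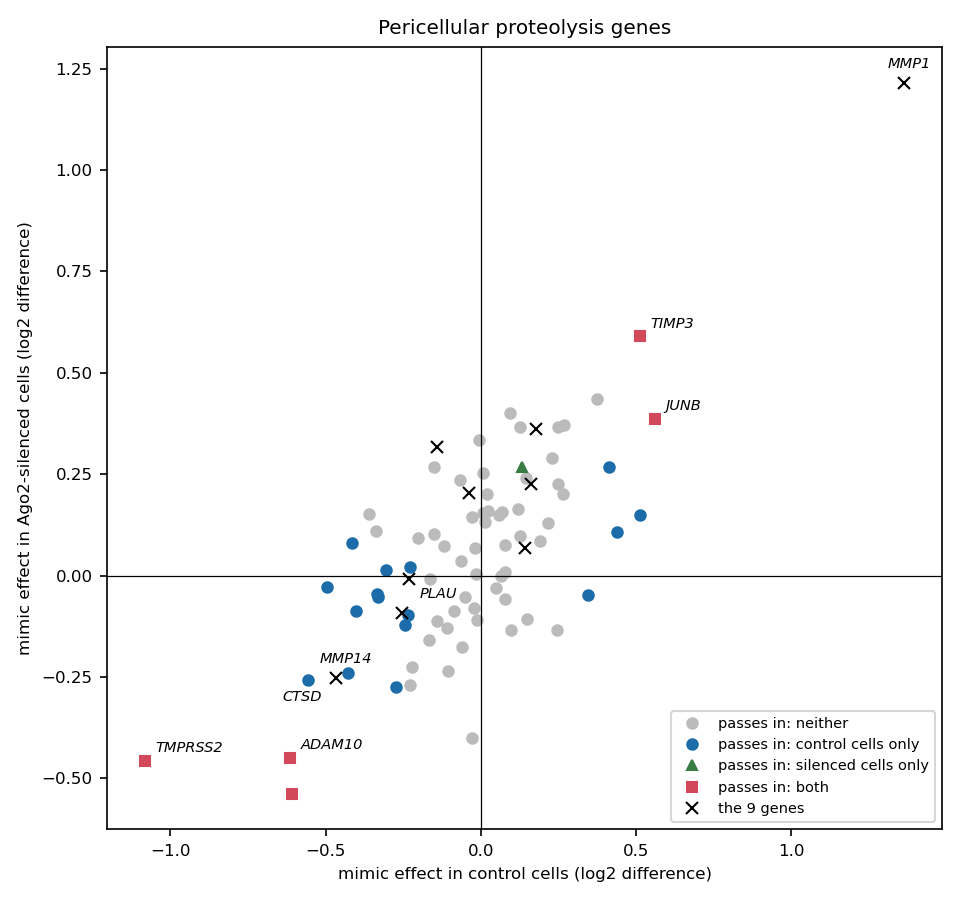
Log2 difference with the mimic in control cells (horizontal axis) and in Ago2-silenced cells (vertical axis) for the 76 tested genes of the pericellular proteolysis list (circles, squares and triangle, colored by the arms in which they passed) and the 9 genes described above (crosses). The red squares are the 5 list genes that passed in both arms, with TIMP3 and JUNB to the upper right and TMPRSS2 and ADAM10 among those to the lower left, and MMP1 lies farthest to the upper right.

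Ago2 silencing without the mimic called 3 of the 76 list genes (3.95%, against 2.58% of all genes), with a median of -0.07. MMP24 was lower (-0.48, adjusted p = 0.0255), CTSB was lower (-0.45, adjusted p = 0.0213) and ETV5 was higher (0.40, adjusted p = 0.0213). In mimic-treated cells silencing called 5 (6.58%, against 4.32% of all genes), with a median of 0.02. Higher were PLGRKT (0.60, adjusted p = 0.0104), TMPRSS2 (0.37, adjusted p = 0.0407) and ADAM19 (0.33, adjusted p = 0.0347). Lower were FOSL2 (-0.52, adjusted p = 0.0173) and the invadopodia gene CTTN, which codes for cortactin (-0.31, adjusted p = 0.0291). For the difference between the mimic effects, limma called 0 of the 76, against 0.011% of all genes. An unadjusted p under 0.05 was found for 10 of the 76, against 16.8% of all genes. Over 25 alternatives the 3 calls for silencing alone each passed in 12, and those for silencing with the mimic in 4 (TMPRSS2), 6 (ADAM19), 7 (CTTN), 16 (FOSL2) and 17 (PLGRKT).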

How the data were processed

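The authors deposited the scanner output of 12 single-color Agilent exon arrays, in which each spot has a background-corrected fluorescence intensity, and a table of log2 values of the same arrays. Per the file headers the intensity was extracted with Agilent Feature Extraction 10.7.3.1 for a design on hg19. Following the study's methods, a floor of 1 was set, and the processed intensities were quantile normalized and log2 transformed. No processed intensity was under 1, so the floor changed none. The study's methods do not name the signal to which their own floor was applied. Of 233164 probes, 209671 were assigned to 20708 RefSeq symbols through the accession of their transcript. Probes were kept where all 3 arrays of some group had them well above background (142929 probes), and their log2 values were averaged per gene (18253 genes). Groups came from the labels. All 12 arrays were fitted with limma 3.58.1 in R 4.3.3, with group and replicate number as terms. Moderated p-values were two-sided and Benjamini-Hochberg adjusted over all genes, with a threshold of 0.05. Intervals are 95% intervals of the fit.

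The study's methods used a permutation test and a paired test, with a false discovery procedure. The alternative called the methods' paired test is the paired test without the permutation test. Correlations between arrays were taken after each group's mean was subtracted. The 18 pairs of arrays of different groups with the same replicate number correlated between 0.148 and 0.576. The 36 pairs with different numbers correlated between -0.497 and 0.201. The subtraction lowers the correlations of different numbers where those of the same number are positive. Some of the 18 pairs also shared a slide, so replicate and slide cannot be told apart in them. For the values, the alternatives were normexp background correction (offset 50), 75th percentile scaling, the deposited log2 table (217027 probes), the median over probes and other probe filters. For the fit, they were no replicate block, slide as a random block, the compared groups alone, the methods' paired test, and leaving out each replicate or array. Slide as a random block took the place of the replicate block, so that setting also dropped the replicate term. Slide as a fixed block, also in place of the replicate block, was added after seeing the data. The 9 genes and the lists were chosen with earlier results of these data known. Named are these 9 genes, AGO2, the list genes that passed (in each comparison at most the 5 largest with values; 1 such gene is not reported here), and for each gene detected in all 4 groups the 3 genes most correlated with it. The markers DCN, PDGFRB and PECAM1 were named after their values were seen. The number of arrays limits the precision.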

Additional observations from a re-analysis of the deposited data

How the results depend on the processing

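Over the alternatives tried, MMP14 with the mimic in control cells passed in 23 of 26 (log2 difference -0.54 to -0.39), MMP1 in 17 of 25 in control cells (0.52 to 1.72) and in 8 of 25 in silenced cells (0.60 to 1.45), and PLAU for silencing with the mimic in 6 of 25 (0.34 to 0.58), each without a change of sign. The number of the 9 genes that passed with the mimic in control cells was 1 with the stricter filter, probes detected on all 12 arrays (MMP1 had none), 1 without the replicate block, 1 with slide as a random block and 0 by the methods' paired test. With the mimic in silenced cells it was 2 with 75th percentile scaling (MMP1 and MMP3), 2 with normexp (MMP1 and MMP14) and 2 with the median over probes (MMP1 and MMP9), and 0 with no replicate block, slide as a random block, slide as a fixed block, only the compared arrays or the paired test. With silencing in mimic-treated cells it was 0 with 75th percentile scaling, the authors' table, no replicate block, slide as a random block, only the compared arrays and the paired test.

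Without the replicate block the adjusted p of MMP1 was 0.216 in control and 0.371 in silenced cells, that of PLAU 0.195 and that of MMP14 in control cells 0.015. The list genes that passed without the block were 8 with the mimic in control cells and 0 in the other comparisons. On leaving out 1 replicate or 1 array, the genes of the 9 that passed ranged from 0 to 2 with the mimic in control cells, from 0 to 1 in silenced cells and from 0 to 1 for silencing with the mimic.

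The number of list genes that passed with the mimic in control cells was 9 with only the compared arrays, 0 by the paired test and 6 to 22 with arrays left out. In silenced cells it was 13 with 75th percentile scaling, 13 with normexp, 11 with the authors' table, 17 with the stricter probe filter, 2 with the median over probes, 2 with slide as a fixed block, 0 with only the compared arrays, 0 by the paired test and 0 to 9 with arrays left out. For silencing alone it was 5 with 75th percentile scaling, 5 with normexp, 9 with the stricter filter, 0 with the median over probes, 0 with slide as a random block, 1 with only the compared arrays, 0 by the paired test and 0 to 3 with arrays left out. For silencing with the mimic it was 3 with 75th percentile scaling, 2 with the median over probes, 0 with slide as a random block, 0 with only the compared arrays, 0 by the paired test and 0 to 5 with arrays left out. For the difference it was 1 with normexp and 1 with the stricter filter.

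Of the 45 differences of the 9 genes, 17 changed sign in some alternative, and none of these 17 passed. With the mimic in control cells MMP3 went to 0.054 with 75th percentile scaling and 0.0525 with normexp (-0.33 to 0.0416 with arrays left out), and MMP9 to 0.0615 with 75th percentile scaling, 0.0071 with the authors' table, 0.0005 with no probe filter and 0.21 with the median over probes (-0.11 to 0.0382 with arrays left out). In silenced cells PLAU went to 0.0076 with 75th percentile scaling (-0.0958 to 0.0643 with arrays left out), and TIMP2 ranged from -0.15 to 1e-04. For silencing alone TIMP2 was -0.0248 with 75th percentile scaling, and with arrays left out it ranged from -0.15 to 0.11, MMP1 from -0.44 to 0.20, MMP3 from -0.30 to 0.0207 and MMP9 from -0.0936 to 0.0305. For silencing with the mimic MMP2 was -0.0125 with 75th percentile scaling, -0.0060 with normexp, -0.0100 with the authors' table and -0.0419 with no probe filter, and MMP1 was 0.0476 with no probe filter. With arrays left out MMP2 ranged there from -0.12 to 0.26, MMP14 from -0.0199 to 0.15 and TIMP1 from -0.12 to 0.0289. The difference between the mimic effects became 0.0172 for MMP1 with 75th percentile scaling and 0.0737 with no probe filter, and -0.0750 for TIMP1 with no probe filter. With arrays left out it ranged from -0.48 to 0.16 for MMP1, -0.0153 to 0.42 for MMP2, -0.0153 to 0.14 for TIMP1, -0.0187 to 0.40 for TIMP2 and -0.14 to 0.0119 for PLAUR. Apart from settings that use fewer arrays, the cause of these changes was not tested. Signal near background limits MMP1, MMP2 and MMP3, and some of the probes of MMP9.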
